A study of Mus musculus with 90 samples.

Results

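Activins are secreted dimers of inhibin beta subunits, and follistatin is a secreted protein that binds and neutralises activin A and activin B. The 5 genes described here are the 4 mouse beta subunit genes, Inhba, Inhbb, Inhbc and Inhbe, and the follistatin gene Fst, taken as insulin- and FOXO-linked secreted factors of the liver. They were chosen by symbol, with the RefSeq ID of the highest mean level taken for each symbol, from 24312 gene symbols measured in 54 liver RNA-seq libraries. The IDs were NM_008380 for Inhba, NM_008381 for Inhbb, NM_010565 for Inhbc, NM_008382 for Inhbe and NM_008046 for Fst.

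Activin A and activin B, the dimers of the beta A (Inhba) and beta B (Inhbb) subunits, bind the type II receptors encoded by Acvr2a and Acvr2b, which recruit the type I receptor encoded by Acvr1b and signal through SMAD2 and SMAD3. The beta C (Inhbc) and beta E (Inhbe) subunits are made mostly by hepatocytes and are secreted into the circulation, where activin E acts as a liver-derived signal to adipose tissue. Follistatin is also released by the liver, and its hepatic gene is known to respond to insulin and FOXO1, a transcription factor that insulin signalling through IRS1 and IRS2 holds out of the nucleus.

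The study followed livers of single mice kept on night-restricted feeding (NRF), in which food is offered at zeitgeber time 12 (ZT12), the start of the dark phase; the training lasted 4 days. Mice were C57BL/6 or carried floxed alleles on that background. Uninjected NRF mice of 10 weeks were taken at ZT10, at ZT14 without food (ZT14-unfed) and at ZT14 after food (ZT14-fed), with 2 libraries each. Injected wild-type mice of 10 weeks, 4 libraries a group, received vehicle without food, or vehicle, the glucocorticoid dexamethasone (dex, 1 mg per kg), the insulin receptor antagonist peptide S961 (labelled 44 nM per mouse), or both agents 30 minutes before food, and all were taken at ZT14. Mice with Nr3c1 fl/fl alleles, the gene of the glucocorticoid receptor (GR), received an adeno-associated virus with Cre (L-GRKO) or GFP (GR fl/fl AAV-GFP) under the hepatocyte promoter Tbg and were taken without food at ZT14, with 4 libraries each. Mice with Irs1 fl/fl and Irs2 fl/fl alleles, 10 weeks old, carried Alb-Cre, active in hepatocytes (L-IRSdKO), or no Cre (Irs1/2 fl/fl); both groups of 4 were fed and had received dex at 1 mg per kg. In the obesity experiment, mice received a high-fat diet for 10 weeks from an age of 5 weeks (obese) or chow (lean), then NRF, and were taken at ZT14 unfed or fed, with 3 libraries a group.

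Values are the RPKM (reads per kilobase of transcript, scaled to the mapped reads of the library) that the authors deposited, which compare levels between genes per length. The NRF libraries were made from ribosome-depleted RNA and all others from polyA-enriched RNA, so levels are compared within an experiment. The smallest steps between RPKM values implied about 26100000 to 38200000 reads in the NRF libraries, 6500000 to 13500000 in the injected mice, 15200000 to 27500000 in the L-GRKO experiment, 3600000 to 4500000 in the L-IRSdKO experiment and 16900000 to 62100000 in the obesity experiment. At these depths Inhba, Inhbb and Fst rested on about 3 to 267 reads a library and Inhbc and Inhbe on about 18 to 6023. In the L-IRSdKO experiment, which holds both lowest numbers of reads, the authors' sequencing summary lists more reads per library than implied here. The implied depth of that experiment, and with it the reads behind each value, may thus be too low by a whole factor. All 5 hepatocyte markers checked were present in every group, but their summed level was 27870 to 72423 RPKM in 4 experiments and 2043 to 2540 RPKM in the L-IRSdKO experiment. Nr3c1 stood at 12.8 to 16.2 RPKM in the AAV-GFP livers and 3.93 to 5.35 in L-GRKO. Irs1 stood at 2.21 to 4.73 RPKM in Irs1/2 fl/fl and 0.149 to 0.321 in L-IRSdKO, whereas Irs2 overlapped, with 0.614 to 5.61 against 0.272 to 1.00 RPKM. The library numbers that the labels give place replicate 4 of each injected group in another library series than replicates 1 to 3, so values from replicates 1 to 3 alone are given beside the injected results where they matter.

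Inhbc and Inhbe were the abundant subunits. Over the 54 libraries Inhbc averaged 25.3 RPKM and Inhbe 22.9 RPKM, above 92.2% and 91.5% of all genes, whereas Inhba averaged 1.04, Inhbb 0.809 and Fst 1.14 RPKM, above 56.4%, 54.5% and 57.1%. Of the summed RPKM of the 4 subunits, Inhba made up 0.582% to 7.07% and Inhbb 0.206% to 14.6% in a library. The inhibin alpha subunit gene Inha, which turns a beta subunit into an inhibin, did not reach the level filter in any experiment. Of the 3 Fst RefSeq IDs, the 2 not used followed the one used across libraries, with Pearson r of 1.0 and 0.9989.

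**Figure D1:**
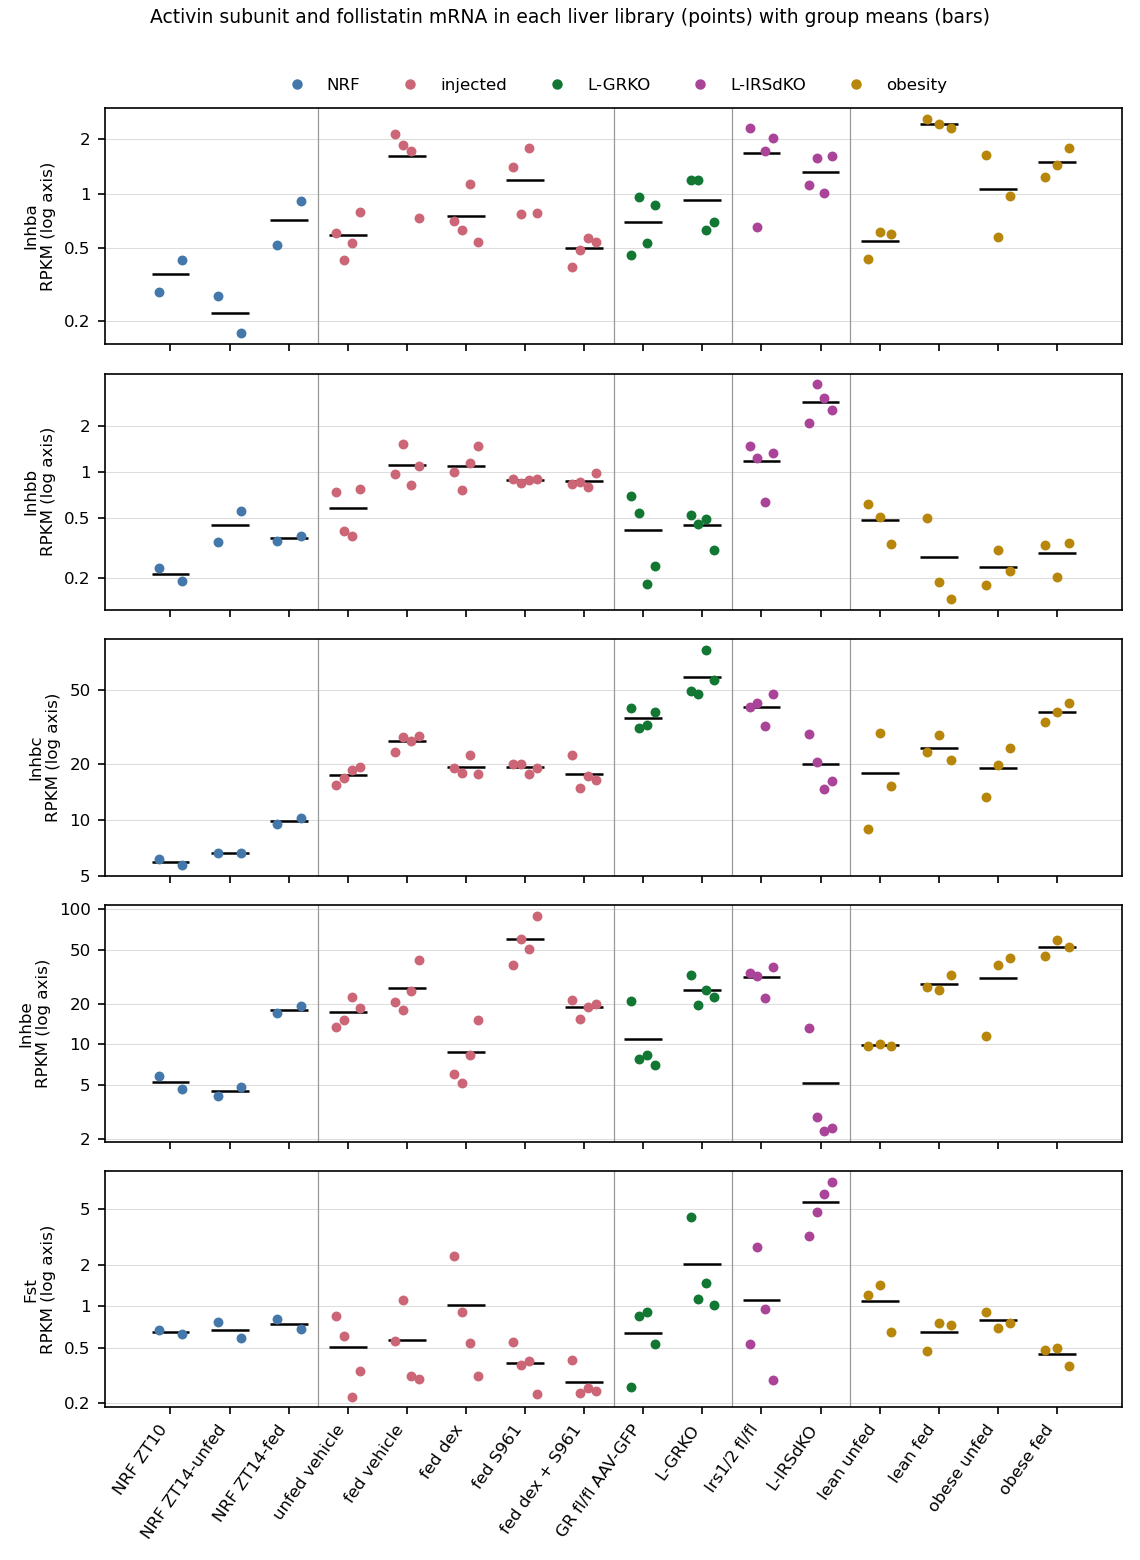
RPKM of each gene in each of the 54 libraries (points, log axis) with group means (black bars), by group and coloured by experiment. Inhbe spans from 2.30 RPKM in L-IRSdKO to 89.3 in fed S961 livers, and Inhbb and Fst are highest in the L-IRSdKO livers.

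The order of group means over all 16 groups is given as a description only, since the RNA selection of the NRF libraries and the hepatocyte marker level of the L-IRSdKO experiment set these apart from the rest. Inhbe ran from NRF ZT14-unfed (4.51 RPKM), L-IRSdKO and NRF ZT10 at the bottom, through fed dex, lean unfed and GR fl/fl AAV-GFP, to obese fed and fed S961 (59.8 RPKM) at the top. Inhbc ran from NRF ZT10 (5.91 RPKM) to L-GRKO (59.0 RPKM), with the 3 NRF groups lowest and Irs1/2 fl/fl and obese fed just under L-GRKO. Inhba was lowest in NRF ZT14-unfed (0.223 RPKM), NRF ZT10 and fed dex + S961, and highest in lean fed (2.42 RPKM), Irs1/2 fl/fl and fed vehicle. Inhbb was lowest in NRF ZT10 (0.212 RPKM) and highest in L-IRSdKO (2.88 RPKM). Fst was lowest in fed dex + S961 (0.286 RPKM) and highest in L-IRSdKO (5.61 RPKM), with L-GRKO next. Most neighbours in these orders did not differ beyond their spread: of the 15 neighbouring pairs of groups, the ranges overlapped in 14 for Inhbe, 11 for Inhbc, 13 for Inhba, 12 for Inhbb and 15 for Fst.

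The genes lie at 4 loci of the mm9 build. Inhbe (chr10:126786458-126788828) and Inhbc (chr10:126793384-126807600) are neighbours on the minus strand with 4556 bases between them. Inhba (chr13:16103684-16119044) is on the plus strand, and Fst (chr13:115242470-115249159) and Inhbb (chr1:121312042-121318825) are on the minus strand. No exon base of any of the 5 is shared with another annotated gene. Open chromatin sites (DNase hypersensitive sites, DHSs) were called from fed and unfed ZT14 livers together. The GR and FOXO1 ChIP-seq peaks are from unfed ZT14 livers. These lists hold positions only, with 83592, 10446 and 8546 entries.

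Within 20 kb of the start site Fst had more GR and FOXO1 peaks than the other 4 genes. Its 3 GR peaks, 4043, 6626 and 7760 bases before the start site in intergenic sequence, had 2 FOXO1 peaks overlapping the first and the last of them. Within 20 kb, 2.9% of the 19783 placed genes had at least 3 GR peaks and 6.2% had at least 2 FOXO1 peaks. Inhbe had a GR peak 3724 bases upstream, in the intergenic stretch between Inhbe and Inhbc, and a FOXO1 peak 40050 bases downstream that overlaps an exon of Mars and lies 64 bases from the Mars start. Inhbc had that same GR peak, 15048 bases downstream of its start, and 2 GR peaks overlapped by 2 FOXO1 peaks 34498 and 35883 bases upstream in an intron of R3hdm2. Within 50 kb Inhbc and Fst thus had the same counts, 3 GR and 2 FOXO1 peaks, and 9.0% and 16.1% of placed genes had at least as many. Inhba had 1 GR peak 3106 bases upstream and no FOXO1 peak within 50 kb. Inhbb had neither. The counts of DHSs within 50 kb were 15 for Inhbc, 12 for Inhbe, 8 for Fst, 5 for Inhba and 4 for Inhbb, and 2.3%, 10.2%, 36.5%, 60.7% and 67.8% of placed genes had at least as many. All GR and FOXO1 peaks named here overlapped a DHS.

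The GR peaks closest to the start sites of Fst, Inhbe and Inhba are printed because the GR and insulin experiments bear on these genes. They are 180 bases each, from mm9, on the plus strand, and capitals mark exact matches of the forkhead core TGTTTAC or of ACANNNTGT, the core of the palindromic GR element, on either strand. ACANNNTGT was found in 20.3% of all GR peaks and 12.7% of all FOXO1 peaks, and TGTTTAC in 7.3% and 18.8%; the matches marked here do not overlap each other.
Fst GR peak, chr13:115253113-115253292: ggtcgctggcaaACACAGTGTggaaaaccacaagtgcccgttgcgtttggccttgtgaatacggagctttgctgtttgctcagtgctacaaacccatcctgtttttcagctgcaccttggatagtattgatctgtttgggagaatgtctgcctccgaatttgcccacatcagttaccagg
Fst GR peak, chr13:115255696-115255875: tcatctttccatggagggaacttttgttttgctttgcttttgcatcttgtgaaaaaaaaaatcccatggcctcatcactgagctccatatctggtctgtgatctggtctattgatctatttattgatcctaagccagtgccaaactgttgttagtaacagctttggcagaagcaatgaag
Fst GR peak, chr13:115256830-115257009: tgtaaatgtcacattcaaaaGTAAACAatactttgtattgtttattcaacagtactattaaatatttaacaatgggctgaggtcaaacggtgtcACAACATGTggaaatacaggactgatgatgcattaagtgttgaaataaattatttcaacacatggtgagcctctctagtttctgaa
Inhbe GR peak, chr10:126792463-126792642: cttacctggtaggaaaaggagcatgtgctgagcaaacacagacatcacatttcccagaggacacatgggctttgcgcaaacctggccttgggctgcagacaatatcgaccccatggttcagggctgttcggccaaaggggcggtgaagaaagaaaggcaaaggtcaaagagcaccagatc
Inhba GR peak, chr13:16100489-16100668: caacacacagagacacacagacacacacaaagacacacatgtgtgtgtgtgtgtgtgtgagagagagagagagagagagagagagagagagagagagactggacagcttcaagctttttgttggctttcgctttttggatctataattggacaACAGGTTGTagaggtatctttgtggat

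The Fst peak farthest from the start site held both motifs, the Fst peak nearest to it and the Inhba peak held only ACANNNTGT, and the middle Fst peak and the Inhbe peak held neither in these windows. The closest annotated protein-coding start to the Inhba peak is that of Gm17394, 2025 bases away, not Inhba.

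**Figure D2:**
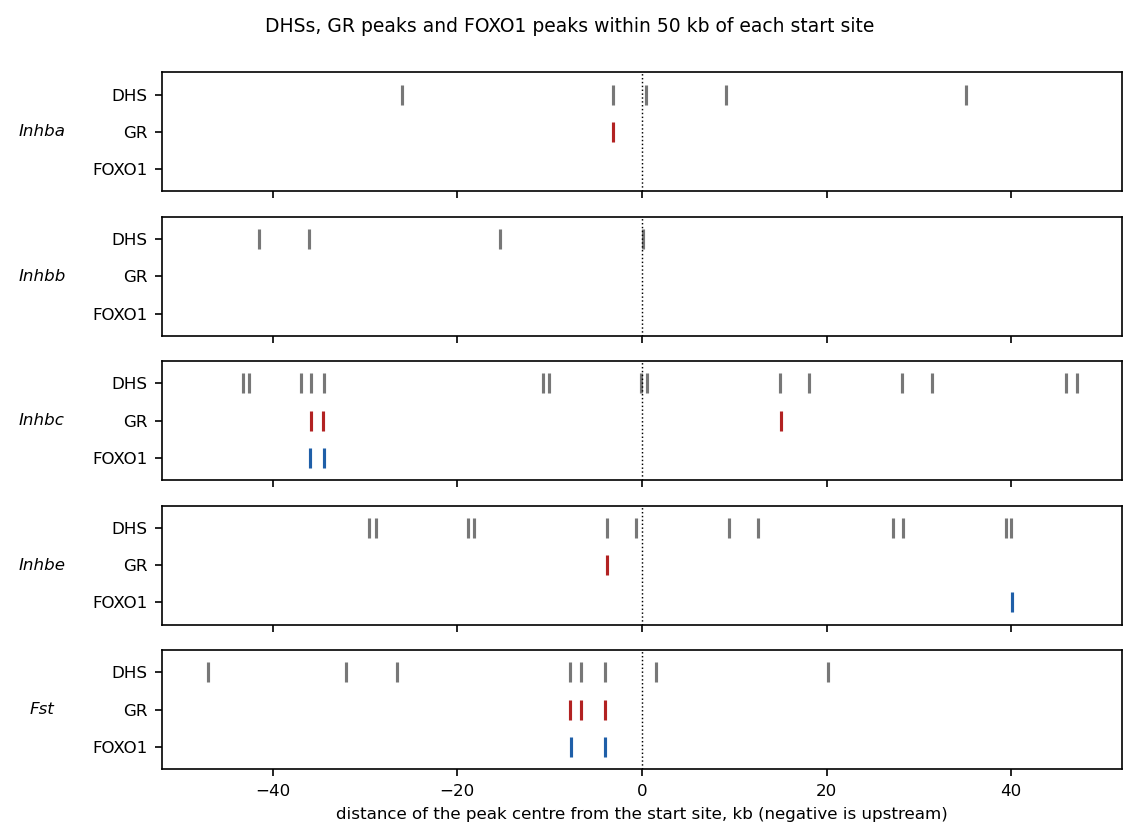
Positions of DHSs, GR peaks and FOXO1 peaks (ticks) by the distance of their centre from the start site of each gene, in kb, with upstream on the left. Fst has 3 GR and 2 FOXO1 peaks between 4006 and 7760 bases upstream, and Inhbb has none within 50 kb.

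The first question was how these genes respond to the meal, in uninjected and in vehicle-injected mice. Inhbe rose most with the meal in NRF mice, Inhbc and Inhba rose with the meal in vehicle-injected mice, and Fst did not pass the test in either. In NRF mice 1 of the 3 genes above the level filter (an average of 0.5 RPKM in the experiment) passed the threshold, an adjusted p under 0.01 in limma with Benjamini-Hochberg adjustment over all genes, where 0.582% of all genes tested were called higher and the median gene rose by 0.118 on the log2 scale. In vehicle-injected mice 2 of 5 passed the threshold of 0.05 there, both higher, where 2.54% of all genes were called higher and the median gene rose by 0.1004. The groups did not overlap for 3 of the 5 genes in NRF mice and for 2 in vehicle-injected mice, as for 59.7% and 13.5% of all genes. Differences are on the log2(RPKM + 0.5) scale throughout, ± SE.

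Inhbe stood at 5.80 and 4.66 RPKM at ZT10, 4.17 and 4.84 at ZT14-unfed and 17.0 and 19.3 at ZT14-fed. Only the fed livers were high, and the difference of ZT14-fed from ZT14-unfed was 1.90 ± 0.14 (adjusted p = 0.0015). In the injected mice, unfed vehicle livers had 13.4, 15.3, 22.3 and 18.7 RPKM and fed vehicle livers 20.7, 18.0, 24.8 and 41.8. These groups overlapped, and the difference of 0.53 (95% interval -0.10 to 1.16, adjusted p = 0.353) did not pass. The NRF call was lost when either ZT14-fed library was left out (adjusted p = 0.024 and 0.0305).

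Inhbc stood at 6.12 and 5.71 RPKM at ZT10, 6.60 and 6.62 at ZT14-unfed and 9.54 and 10.2 at ZT14-fed. The fed libraries were again the highest, yet the difference of 0.55 ± 0.10 (adjusted p = 0.0234) missed the threshold of 0.01. In the injected mice Inhbc went from 15.5, 16.7, 18.5 and 19.3 RPKM unfed to 23.1, 28.0, 26.7 and 28.3 fed, without overlap, a rise of 0.59 ± 0.12 (adjusted p = 0.0128). The call was lost without unfed vehicle replicate 2 (adjusted p = 0.0522).

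Inhba, the subunit of activin A, was under the filter in the NRF libraries, at 0.288 and 0.432 RPKM at ZT10, 0.274 and 0.171 at ZT14-unfed and 0.520 and 0.910 at ZT14-fed. The fed libraries did not overlap the others, and with 2 against 2 libraries the two-sided exact permutation test cannot go below 0.333, the value it gave. In injected mice Inhba had 0.604, 0.433, 0.534 and 0.794 RPKM unfed and 2.11, 1.85, 1.72 and 0.732 fed. Of the fed livers only replicate 4 lay within the unfed range, and the rise of 0.90 ± 0.23 passed (adjusted p = 0.0375). With replicates 1 to 3 alone it was 1.22 (adjusted p = 0.00638), and it was lost when any of replicates 1, 2 or 3 of either group was left out (adjusted p from 0.0889 to 0.116).

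Inhbb, the subunit of activin B, went in injected mice from 0.736, 0.410, 0.378 and 0.777 RPKM unfed to 0.974, 1.53, 0.825 and 1.10 fed. These ranges were apart, but the difference of 0.58 (95% interval 0.24 to 0.92, adjusted p = 0.0559) missed the threshold; it passed with a library series term (adjusted p = 0.024), with replicates 1 to 3 alone (0.67, adjusted p = 0.0448) and without unfed vehicle replicate 4 (adjusted p = 0.044). In NRF mice Inhbb was under the filter, at 0.343 and 0.555 RPKM unfed and 0.353 and 0.377 fed at ZT14, within overlapping ranges. Fst ranged from 0.594 to 0.803 RPKM over the 6 NRF libraries. In vehicle-injected mice it was 0.849, 0.612, 0.223 and 0.343 RPKM unfed and 0.564, 1.11, 0.313 and 0.298 fed, and its difference was 0.07 (95% interval -0.57 to 0.71, adjusted p = 0.932).

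From ZT10 to ZT14-unfed, none of the 3 genes above the filter passed in limma, and none had an unadjusted p under 0.05, where 1.17% of all genes were called; the groups did not overlap for 3 of the 5 genes and 56.2% of all genes. As a reference gene of the insulin state, Igfbp1, which insulin represses, fell by 6.35 with the NRF meal and by 4.08 with the meal in vehicle-injected mice. The 5 Kupffer cell markers summed to 45.1 to 58.7 RPKM in unfed and 62.6 to 98.5 in fed vehicle livers, without overlap, and 2 of the 5 were called higher (list median 0.638). In the NRF mice none of the 5 was called with the meal by limma. The part of this shift in the rise of Inhbc and Inhba was not tested.

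Dex and S961 were given before the meal to keep glucocorticoid signalling high or insulin signalling low in fed livers. Dex lowered Inhbe and Inhbc, and dex with S961 lowered Inhba and Inhbc. The mean of Inhbe was higher under S961 alone than in any other injected group, and its levels overlapped those of the vehicle livers when both agents were given. With dex 2 of the 5 genes were called, both lower, where 2.19% of all genes were called lower. With S961 none of the 5 was called in limma (2 had an unadjusted p under 0.05), where 1.92% of all genes were called. With a term for the library series, which this fit does not hold, Inhbe (adjusted p = 0.004445) and Inhbc (adjusted p = 0.0297) were called, and likewise with the replicate number as a block (adjusted p = 0.00472 and 0.043). With both agents 2 of 5 were called, both lower, where 7.88% of all genes were called lower and the median gene fell by 0.14. The groups did not overlap for 2 of the 5 genes with dex, 1 with S961 and 2 with both, against 10.5%, 6.48% and 17.1% of all genes. All 3 comparisons share the fed vehicle livers, and so does the meal comparison in vehicle-injected mice. Mean Inhbc was 26.5 RPKM in fed vehicle, 17.5 in unfed vehicle, 19.2 with dex, 19.2 with S961 and 17.8 with both. Its rise with the meal and its falls with the agents are thus not independent of each other. The Kupffer cell markers, at 62.6 to 98.5 RPKM in fed vehicle livers, summed to 40.1 to 64.1 with dex, 42.7 to 64.5 with S961 and 50.8 to 59.8 with both, and 1, 2 and 3 of the 5 were called lower (list medians -0.508, -0.604 and -0.653), where with S961 0.96% of all genes were called lower. With dex 2 of the 5 sinusoidal endothelial markers were also called lower, with sums of 52.2 to 68.6 against 63.9 to 74.7 RPKM. The part of these shifts in the falls of Inhbe, Inhbc and Inhba was not tested.

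Inhbe stood at 6.01, 5.16, 8.41 and 15.3 RPKM with dex, all below the fed vehicle range of 18.0 to 41.8. It fell by 1.59 on the log2 scale, with an SE of 0.30 (adjusted p = 0.00629). With S961 it stood at 38.8, 59.9, 51.0 and 89.3 RPKM, and only the lowest of these lay within the vehicle range. The difference of 1.18 (95% interval 0.55 to 1.81) had an adjusted p of 0.0504, just outside the threshold; it was 1.21 (adjusted p = 0.0132) with replicates 1 to 3 alone, and it passed without fed vehicle replicate 4 (adjusted p = 0.0175) or fed S961 replicate 1 (adjusted p = 0.0261). With dex and S961 together Inhbe was 21.4, 15.5, 19.0 and 19.9 RPKM, a difference of -0.40 from vehicle (95% interval -1.03 to 0.23, adjusted p = 0.446). The test of whether dex acted otherwise with S961 than without it gave a difference of 0.01 (95% interval -0.89 to 0.90, adjusted p = 1.0). The dex call was lost only when the 2 compared groups were fitted alone (adjusted p = 0.0718).

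Inhbc, the neighbour of Inhbe, was lower than in vehicle livers in all 3 treated groups. It stood at 19.0, 17.8, 22.3 and 17.6 RPKM with dex, 20.1, 19.96, 17.7 and 19.1 with S961 and 22.5, 14.9, 17.2 and 16.4 with both, every library below the fed vehicle range of 23.1 to 28.3. The difference from vehicle was -0.46 ± 0.12 for dex (adjusted p = 0.0364), -0.45 ± 0.12 for S961 (adjusted p = 0.0547, called only with the series term or the block) and -0.58 ± 0.12 for both (adjusted p = 0.00408). The dex call was lost without fed vehicle replicate 2, 3 or 4 or fed dex replicate 1, 2 or 4 (adjusted p from 0.0675 to 0.123) and with replicates 1 to 3 alone (adjusted p = 0.103). The ratio of Inhbe to Inhbc RPKM was 0.290 to 0.870 in the dex livers and 1.93 to 4.68 in the S961 livers, and these ranges did not overlap.

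Inhba stood at 0.708, 0.628, 1.13 and 0.542 RPKM with dex, at 1.40, 0.768, 1.79 and 0.786 with S961 and at 0.396, 0.491, 0.572 and 0.544 with both. Only the livers given both agents lay wholly below the fed vehicle range of 0.732 to 2.11. Inhba fell by 1.02 on the log2 scale with both agents, with an SE of 0.23 (adjusted p = 0.00766). The difference with dex alone was -0.71 (95% interval -1.19 to -0.24, adjusted p = 0.0898), which passed with a library series term (adjusted p = 0.0437), with replicates 1 to 3 alone (-0.87, adjusted p = 0.0212) and without fed vehicle replicate 4 (adjusted p = 0.0163). With S961 alone it was -0.31 (95% interval -0.79 to 0.17, adjusted p = 0.609).

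Inhbb and Fst passed in none of the 3 comparisons. Inhbb kept to 0.760 to 1.49 RPKM with dex, 0.850 to 0.90 with S961 and 0.791 to 0.990 with both, inside or next to the fed vehicle range of 0.825 to 1.53. Fst was 2.31, 0.905, 0.543 and 0.316 RPKM with dex, with 1 high library, 0.554, 0.375, 0.405 and 0.231 with S961 and 0.409, 0.237, 0.256 and 0.243 with both. Its difference from vehicle was 0.40 with dex (95% interval -0.24 to 1.04, adjusted p = 0.528) and -0.39 with both (95% interval -1.03 to 0.25, adjusted p = 0.469). For Igfbp1 the differences from vehicle were 2.70 with dex, 1.37 with S961 (adjusted p = 0.256, not called) and 4.07 with both. For the interaction of dex and S961 0.0% of all genes were called by limma, where 515 of 11353 had an unadjusted p under 0.05.

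The L-GRKO livers addressed what loss of hepatic GR does before the meal. Inhbe and Inhbc rose, 2 of the 4 genes above the filter, where 4.45% of all genes were called higher. For Inhbc and Fst, 2 of the 5 genes, the groups did not overlap, as for 12.8% of all genes. Inhbe stood at 20.9, 7.86, 8.32 and 6.999 RPKM in GR fl/fl AAV-GFP and 32.9, 19.7, 25.3 and 22.5 in L-GRKO. The groups overlapped only through AAV-GFP replicate 1, which was far above its group. The rise was 1.27 ± 0.30 (adjusted p = 0.0294), and 1.48 (adjusted p = 0.000725) with replicate 1 of both groups left out. Inhbc went from 39.996, 31.3, 32.5 and 38.1 RPKM to 49.4, 47.9, 82.2 and 56.5, without overlap, a rise of 0.70 ± 0.16 (adjusted p = 0.0299). The Inhbe call was lost without AAV-GFP replicate 2, 3 or 4 or L-GRKO replicate 1 or 3 (adjusted p from 0.0652 to 0.102) and the Inhbc call without AAV-GFP replicate 2 or 3 or L-GRKO replicate 4 (adjusted p from 0.0517 to 0.0956). With median-ratio scaling neither passed (1.18, adjusted p = 0.0563, and 0.60, adjusted p = 0.0662). Of the 6 stellate cell and fibroblast markers 1 was called higher, with sums of 50.9 to 76.6 RPKM against 35.6 to 55.1 in AAV-GFP livers. Of the 5 hepatocyte markers 1 was called lower, where 2.23% of all genes were, with overlapping sums. No marker of the other lists was called. The part of these shifts in the rises of Inhbe and Inhbc was not tested.

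Fst stood at 0.263, 0.846, 0.907 and 0.534 RPKM in AAV-GFP livers and 4.42, 1.13, 1.47 and 1.03 in L-GRKO. Every L-GRKO library was above every control, and replicate 1 was far above the rest. The difference of 1.00 ± 0.35 (95% interval 0.23 to 1.78, adjusted p = 0.129) did not pass, and without replicate 1 of both groups it was 0.44 (adjusted p = 0.349). Inhba, at 0.458, 0.954, 0.534 and 0.863 RPKM against 1.19, 1.18, 0.632 and 0.702 in L-GRKO, differed by 0.24 (95% interval -0.21 to 0.69, adjusted p = 0.571). Inhbb was under the filter, at 0.183 to 0.693 RPKM in controls and 0.308 to 0.524 in L-GRKO (exact permutation test, two-sided, p = 0.743). In the same livers Igfbp1 fell by 2.62.

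The L-IRSdKO livers held the largest differences of Inhbe and Fst in the series, in opposite directions. Of the 5 genes 4 were called: Inhbe and Inhbc fell, and Inhbb and Fst rose, where 17.4% of all genes were called, 9.02% higher and 8.36% lower. For these 4 genes the groups did not overlap, as for 21.7% of all genes. Both groups were fed and had received dex.

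Inhbe stood at 33.7, 31.9, 22.1 and 37.7 RPKM in Irs1/2 fl/fl and 13.2, 2.89, 2.30 and 2.42 in L-IRSdKO. No library of one group reached the other, and 3 of the 4 L-IRSdKO libraries lay within 2.30 to 2.89 RPKM with replicate 1 apart. Inhbe fell by 2.82 on the log2 scale, with an SE of 0.47 (adjusted p = 0.00681). Inhbc went from 40.5, 42.7, 31.9 and 47.9 RPKM to 29.2, 20.5, 14.6 and 16.1, also without overlap and with replicate 1 highest. It fell by 1.04 on the log2 scale, with an SE of 0.21 (adjusted p = 0.0133). Both calls held in every alternative and with each library left out. The ratio of Inhbe to Inhbc was 0.141 to 0.453 in L-IRSdKO, which held the lowest value of the 54 libraries.

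Fst stood at 0.537, 2.66, 0.956 and 0.292 RPKM in Irs1/2 fl/fl and 3.21, 4.82, 6.49 and 7.93 in L-IRSdKO. The groups did not overlap, and the lowest L-IRSdKO library was replicate 1, the one with the highest Inhbe and Inhbc. The rise was 2.07 ± 0.43 (adjusted p = 0.0138) and held in every alternative and with each library left out. Inhbb went from 1.48, 1.23, 0.637 and 1.34 RPKM to 2.11, 3.78, 3.08 and 2.56, a rise of 1.02 ± 0.23 (adjusted p = 0.019). This call was lost without L-IRSdKO replicate 2 or 3 (adjusted p = 0.0598 and 0.0574). Inhba, at 2.28, 0.655, 1.70 and 2.03 RPKM against 1.11, 1.56, 1.01 and 1.60, differed by -0.19 (95% interval -0.84 to 0.46, adjusted p = 0.685). Igfbp1 rose by 3.30.

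In these bulk livers fewer cells of a type and less RNA per cell cannot be told apart. The summed level of the 5 Kupffer cell markers was 248 to 318 RPKM in L-IRSdKO and 141 to 262 in the controls, that of the 5 sinusoidal endothelial markers 117 to 148 against 94.8 to 121, and that of the 6 stellate cell and fibroblast markers 110.5 to 133 against 94.9 to 115, with none of these 16 markers at 0 in every library of a group. The 5 hepatocyte markers summed to 2043 to 2478 RPKM in L-IRSdKO and 2260 to 2540 in the controls. Of these lists 1 of 5 Kupffer, 3 of 5 endothelial and 1 of 5 tested stellate markers were called higher and 1 of 5 hepatocyte markers lower. Other lists went the opposite way without overlap: the 5 cholangiocyte markers summed to 7.87 to 13.9 RPKM against 19.7 to 46.2 in the controls, with 2 of 4 tested called lower, and the 3 pancreatic acinar markers to 5.21 to 14.3 against 19.9 to 26.2, with 1 of 1 tested called lower and Prss1 at 0 in every library of both groups. The part of these shifts in the differences of the 4 genes was not tested.

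**Figure D3:**
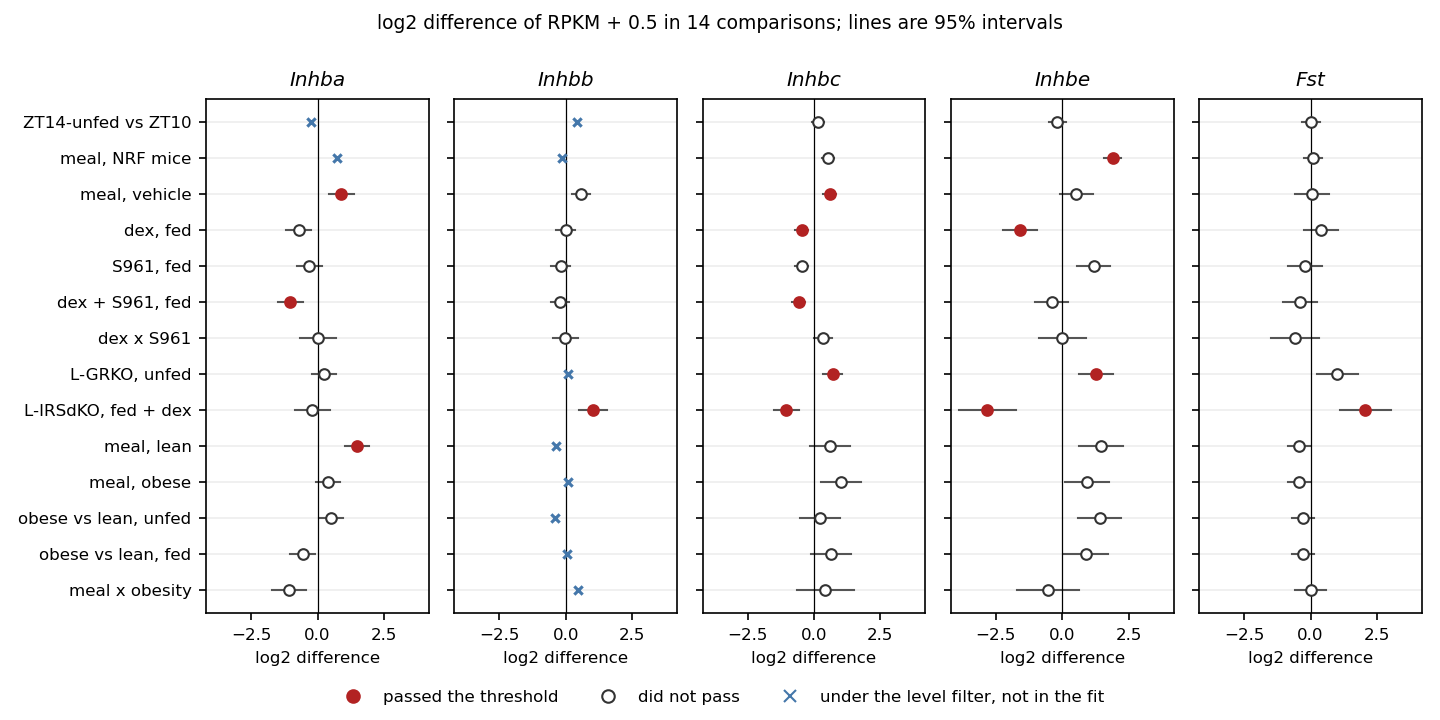
Difference in log2(RPKM + 0.5) of each gene in the 14 comparisons (points) with 95% intervals (lines); red points passed the threshold, open points did not and crosses were under the level filter and had no model fit. Inhbe is lower in L-IRSdKO by 2.82 and in fed dex livers by 1.59, while Fst passed only in L-IRSdKO, where it was higher by 2.07.

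The obesity experiment asked whether the response to the meal differs after a high-fat diet. Inhba rose with the meal in lean mice and was the only gene called in this experiment, 1 of the 4 above the filter, where 7.06% of all genes were called higher at an adjusted p under 0.01. In obese mice none of the 4 was called with the meal in limma (3 had an unadjusted p under 0.05), where 1.2% of all genes were called. None was called between obese and lean mice either, unfed (2 with an unadjusted p under 0.05) or fed (2 likewise), where 0.771% and 0.0% of all genes were called. The groups did not overlap for 2 of the 5 genes with the lean meal, 3 with the obese meal, 2 between obese and lean unfed mice and 3 between fed mice, against 43.3%, 27.8%, 22.9% and 32.6% of all genes. Of all 11541 genes tested between obese and lean fed mice, 2310 had an unadjusted p under 0.05.

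Inhba stood at 0.437, 0.616 and 0.601 RPKM in lean unfed livers and 2.58, 2.40 and 2.29 in lean fed livers. All fed libraries were far above all unfed ones, and the rise was 1.48 ± 0.21 (adjusted p = 0.00103). The 5 sinusoidal endothelial markers summed to 58.7 to 71.4 RPKM in lean unfed and 41.3 to 48.5 in lean fed livers, with 1 called lower, where 3.22% of all genes were, and their part was not tested. In obese mice Inhba was 1.63, 0.579 and 0.970 RPKM unfed and 1.24, 1.44 and 1.78 fed. These groups overlapped, with a difference of 0.39 (95% interval -0.06 to 0.85, adjusted p = 0.266). The meal response was smaller in obese than in lean mice by 1.08 (a difference of -1.08, 95% interval -1.73 to -0.44, unadjusted p = 0.00353), but this did not pass after adjustment over all genes (adjusted p = 0.125), where 0.13% of all genes were called.

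Inhbe stood at 9.79, 10.0 and 9.77 RPKM in lean unfed livers, 26.6, 25.4 and 32.6 in lean fed, 11.5, 38.6 and 43.6 in obese unfed and 45.4, 58.8 and 52.9 in obese fed. In both diets the fed livers lay above the unfed ones, and obese livers lay above lean ones in both states. None of these differences passed: 1.46 for the lean meal (adjusted p = 0.0173), 0.94 for the obese meal (adjusted p = 0.146), 1.41 for obese against lean unfed (adjusted p = 0.0541) and 0.88 for obese against lean fed (adjusted p = 0.222). With only the lean groups in the fit, the lean meal difference of 1.46 passed (adjusted p = 0.00033). With each library left out in turn, the unfed difference passed only without obese unfed replicate 1 (2.00, adjusted p = 0.000148). That library is the low one of its group for Inhbe itself. The value thus describes how much the difference rests on that library and is no separate test. The meal response itself differed between the diets by -0.53 (95% interval -1.69 to 0.63, adjusted p = 0.681).

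Inhbc was 8.90, 29.3 and 15.2 RPKM in lean unfed livers, 23.3, 28.8 and 21.1 in lean fed, 13.2, 19.8 and 24.3 in obese unfed and 33.7, 38.2 and 42.9 in obese fed. The obese fed libraries lay above all others, with a meal difference of 1.02 ± 0.34 that did not pass (adjusted p = 0.093). Fst was 1.21, 1.43 and 0.647 RPKM in lean unfed livers, 0.475, 0.759 and 0.727 in lean fed, 0.915, 0.696 and 0.760 in obese unfed and 0.483, 0.497 and 0.370 in obese fed. The meal difference was -0.44 in both diets (adjusted p = 0.112 in lean and 0.171 in obese mice). Inhbb was under the filter in this experiment, at 0.145 to 0.619 RPKM. The obese unfed values of 0.180, 0.307 and 0.223 lay below the lean unfed values of 0.619, 0.505 and 0.333, and the exact permutation test, two-sided, gave 0.1, the smallest it allows with 3 against 3. The 5 sinusoidal endothelial markers summed to 32.2 to 43.6 RPKM in obese unfed and 58.7 to 71.4 in lean unfed livers, without overlap. Of these markers 1 was called lower (list median -0.71), where 0.347% of all genes were. The part of this shift in the obese against lean unfed differences was not tested. Igfbp1 fell by 6.22 with the meal in lean mice, and Igfbp1 was lower in obese than in lean unfed livers by 3.65 (a difference of -3.65, adjusted p = 0.00273).

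Across all 54 libraries, with each gene's log2 values centred on the mean of its experiment, Inhbc and Inhbe went together (Pearson r = 0.672, Spearman rho = 0.689). The libraries share experiments and groups, so these values are descriptions and carry no p. Within the L-IRSdKO experiment r was 0.978 and within the injected mice 0.198. Fst went against Inhbe (r = -0.525), with -0.886 within L-IRSdKO but 0.545 within L-GRKO and 0.44 within NRF. Fst and Inhbb had r = 0.45, with 0.738 within L-IRSdKO and -0.024 when values were centred on group means. Inhba went against Igfbp1 (r = -0.785, rho = -0.782), while Inhbe and Inhbc did so with r of -0.645 and -0.651. Centred on group means these 3 values were -0.547, -0.012 and -0.003.

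**Figure D4:**
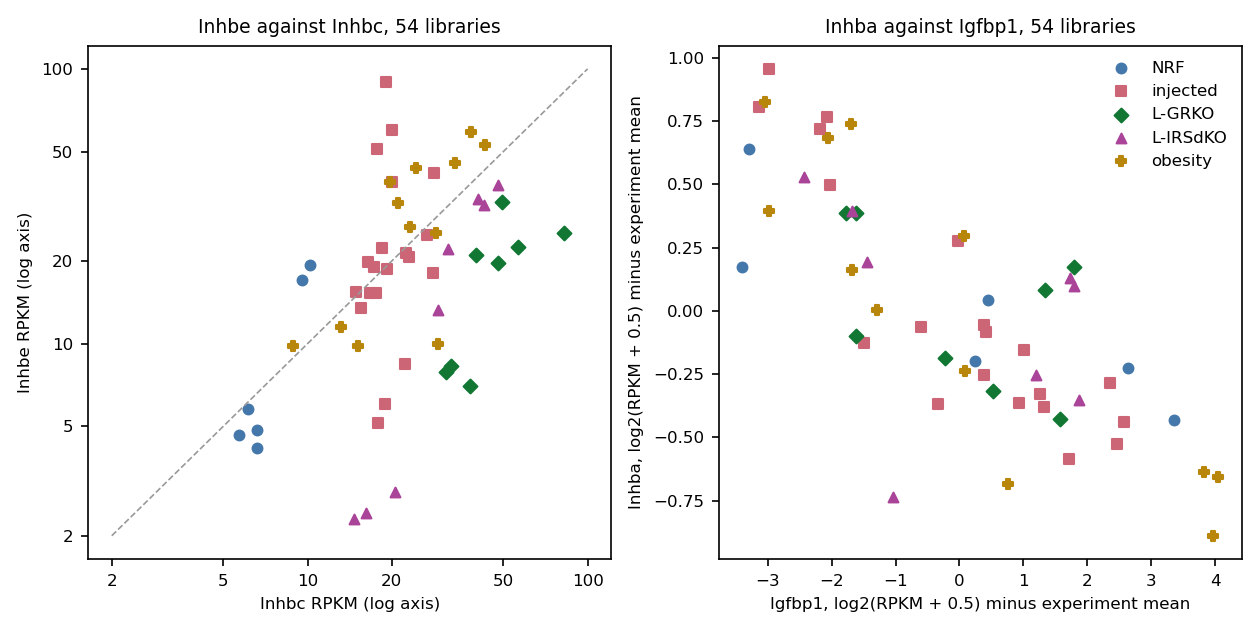
Left, Inhbe against Inhbc RPKM in each library (log axes, dashed line of equal RPKM); right, Inhba against Igfbp1, log2(RPKM + 0.5) minus the experiment mean; colours and shapes mark the 5 experiments. S961 livers lie above the line of equal RPKM with ratios of 1.93 to 4.68 and L-IRSdKO livers below it with 0.141 to 0.453, and Inhba runs against Igfbp1 with r = -0.785.

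Among 9072 genes that averaged 1 RPKM or more in every experiment, the genes whose pattern over the 54 libraries was most like Inhbe were Apon (r = 0.8352), G0s2 (0.8283), Uck1 (0.821), Bhlhe40 (0.8203) and Nat8f2 (0.8075). G0s2 encodes an inhibitor of the triglyceride lipase ATGL, and Bhlhe40 a repressor linked to the clock. Most like Inhbc were Stk16 (0.8314), Cfb (0.831), the complement factor B gene, Pdilt (0.8239), Slc17a3 (0.8091) and Mtmr4 (0.7962). Among those most like Inhba were Rassf6 (0.8074), Ttc14 (0.7511), Zfp322a (0.7467) and Nrep (0.7284). Inhbb was most like Pakap (0.7964), Cemip2 (0.717), Lyve1 (0.7145), a marker of sinusoidal and lymphatic endothelium, Msn (0.6928) and Acer2 (0.6709). Fst was most like Gtdc1 (0.7433), Kng2 (0.739), Rrm1 (0.7304), Il17rb (0.7201) and Pde4c (0.6998), all weaker than the best match of any subunit gene. These r are over values centred on experiment means, so they hold differences between groups. Within groups r was lower for each of these genes, from 0.381 (Zfp322a with Inhba) to 0.803 (G0s2 with Inhbe).

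The receptor genes named above for activin A and activin B showed small differences. Acvr2a, the main type II receptor gene here, had group means of 4.31 to 7.69 RPKM and passed in no comparison. Acvr2b, the other type II receptor gene, had group means of 0.441 to 7.13 RPKM and passed in none; it was 2.98 to 5.25 RPKM in Irs1/2 fl/fl and 3.45 to 10.7 in L-IRSdKO, a difference of 0.78 (adjusted p = 0.116). Acvr1b, the type I receptor gene, was 2.18 to 3.49 RPKM in fed vehicle livers and 1.61 to 1.77 with dex and S961, a fall of 0.53 on the log2 scale (a difference of -0.53, adjusted p = 0.023). It was 1.80 to 2.30 RPKM in lean unfed and 3.46 to 4.39 in obese unfed livers, higher by 0.80 (adjusted p = 0.00592).

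Of 62 further genes of activin, TGF-beta and BMP signalling, 46 passed the level filter in some experiment, 16 never did and 19 were called in at least 1 comparison. The ID genes, targets of BMP and SMAD signalling that encode inhibitors of helix-loop-helix factors, were called most often. Id3 rose with the meal in NRF mice by 1.28 (adjusted p = 0.008), in vehicle-injected mice by 1.11 (adjusted p = 0.00987) and in lean mice by 2.45 (adjusted p = 0.000951), the single pathway gene called in the first 2 and 1 of 2 higher in the last, with Ski (0.70, adjusted p = 0.00286), a SMAD co-repressor. Those counts of 1 of 44, 1 of 42 and 2 of 43 tested stand beside 0.582%, 2.54% and 7.06% of all genes called higher. With dex none was higher and 3 were lower of 42 tested, where 2.19% of all genes were lower, Id2 by -1.22, Id3 by -1.17 and the receptor gene Tgfbr2 by -0.70, and the list's median of -0.167 compared with -0.0982 over all genes. With S961 1 was higher, Id2 by 0.86, and 1 was lower, Smurf1, a ubiquitin ligase of SMADs, by -0.55, where 0.96% of all genes were called in each direction. With both agents 1 was higher, the stress-responsive ligand gene Gdf15 by 2.03, and 4 were lower, among them Smurf1 by -0.58 and Id3 by -0.81, where 2.68% and 7.88% of all genes were.

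In L-GRKO 4 of 43 were higher, Id3 by 1.92, Id2 by 1.72, Id1 by 1.84 and Ski by 0.54, and 1 was lower, where 4.45% and 2.23% of all genes were, with a list median of 0.159 against 0.0823 over all genes. In L-IRSdKO 8 of 46 were higher and 4 lower, where 9.02% and 8.36% of all genes were, with a list median of 0.209 against 0.0303. By adjusted p the first were Ski (0.73), the ligand gene Bmp7 (-1.34), Tgfbr2 (1.66) and Pcsk6 (-0.44), a proprotein convertase gene. Smurf1 was the single gene called between ZT14-unfed and ZT10 (-0.89, where 0.8% of all genes were lower), Acvr1b the single gene between obese and lean unfed livers (0.425% higher), and none of the list was called for the obese meal, obese against lean fed livers or either interaction.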

How the data were processed

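RNA from livers of single mice was sequenced in 54 libraries and 16 groups, as labelled. The authors deposited RPKM per RefSeq ID and positions of DHSs, GR peaks and FOXO1 peaks. The submitters' notes name STAR, HOMER, DESeq2 and mm9 without roles. Of 35707 RefSeq IDs 300 had no symbol and were kept as features. RPKM were analysed as log2(RPKM + 0.5) per experiment, over genes averaging 0.5 RPKM or more, with limma 3.58.1 (R 4.3.3, intensity trend) and Benjamini-Hochberg adjustment over all genes. Thresholds were 0.01 (NRF, obesity) and 0.05 (others). Genes under the filter had exact permutation tests. The fit was tested on simulated data. RPKM are scaled to each library's total, so abundant transcripts move all others, and their counting error is not known exactly. Nothing states that same-numbered mice were paired. Named genes were the 5 genes, Nr3c1, Irs1, Irs2, Igfbp1, the 5 genes most like each, and at most 4 called pathway genes a comparison with the receptors; some genes that this rule names are not reported here. The 5 genes and all lists were chosen with earlier results of these data known. Positions are from the mm9 annotation (GENCODE). Other ChIP-seq samples of the series were not used here.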

Additional observations from a re-analysis of the deposited data

Results flagged for a closer look

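In 45 gene and group combinations of 4 libraries, 4 had a library whose gap to its nearest neighbour exceeded Dixon's critical share of the group's range. Chance flags about 1 in 20 such groups where values follow a normal distribution, which was not tested for these RPKM. Inhbe was 20.9 RPKM in GR fl/fl AAV-GFP replicate 1 and 6.999 to 8.32 in the other 3 libraries. Inhbe was 13.2 RPKM in L-IRSdKO replicate 1 and 2.30 to 2.89 in the others. Fst was 4.42 RPKM in L-GRKO replicate 1 and 1.03 to 1.47 in the others. Fst was 0.409 RPKM in fed dex + S961 replicate 1 and 0.237 to 0.256 in the others. All 4 are the highest library of their group.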

How the results depend on the processing

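Of the 14 called differences of single genes, those of Inhba with dex and S961 and with the lean meal, of Inhbc with dex and S961 and in L-IRSdKO, and of Inhbe and Fst in L-IRSdKO stayed past the threshold under every alternative in which they were tested and with each library left out. The others were lost under some setting, and none of the 14 changed direction. Counts of these 5 genes called moved as follows; the cause was not tested. Without the level filter the count was 0 for the NRF meal (1 in the main analysis), 1 for the vehicle meal (2) and 0 for L-GRKO (2). With the level filter raised to an average of 2 RPKM, which leaves Inhbc and Inhbe and, in the L-IRSdKO experiment, also Inhbb and Fst, it was 1 for the vehicle meal, 1 for S961 (0), 1 for dex with S961 (2) and 0 for the lean meal (1). With either median-ratio scaling or quantile normalization it was 1 for the vehicle meal, 1 for dex (2), 1 for S961 and 0 for L-GRKO. With the compared groups alone it was 1 for the vehicle meal, 0 for dex and 2 for the lean meal. A pseudocount of 1 gave 1 for S961, a library series term 2, and replicates 1 to 3 alone, an alternative chosen after seeing the data like the omission of both L-GRKO libraries numbered 1, gave 1. The library series term also added Inhbb with the vehicle meal (adjusted p = 0.024) and Inhba with dex (adjusted p = 0.0437), giving 3 for each, and replicates 1 to 3 alone gave 3 for the vehicle meal. With single libraries left out the count ran from 0 to 1 for the NRF meal, 0 to 3 for the vehicle meal, 1 to 2 for dex, 0 to 1 for S961, 0 to 2 for L-GRKO, 3 to 4 for L-IRSdKO and 0 to 1 for obese against lean unfed livers.

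Mice of the same replicate number were not paired by the labels, and their deviations from group means correlated with r from -0.118 to 0.606 in the injected mice and from -0.202 to 0.213 elsewhere. A fit with the replicate number as a block raised the count for S961 to 2 (Inhbc, adjusted p = 0.043, and Inhbe, adjusted p = 0.00472), called Inhbb with the vehicle meal (adjusted p = 0.0332) and Inhba with dex (adjusted p = 0.0466), and lost Inhbb in L-IRSdKO (adjusted p = 0.0553).

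Differences near 0 that had not passed changed sign. For Fst these were the ZT10 comparison (-0.079 to 0.131 with single libraries left out), the NRF meal (-0.000357 with median-ratio scaling, -0.032 with quantile normalization, -0.024 to 0.186 with libraries left out), the vehicle meal (-0.146 with quantile normalization, -0.146 to 0.224), S961 (-0.337 to 2.87e-05) and the interaction of meal and obesity (-0.0703 with a pseudocount of 0.1, -0.152 to 0.224). For Inhbb they were dex (0.062 with median-ratio scaling, 0.119 with quantile normalization, -0.12 to 0.11) and the interaction of dex and S961 (0.063 with replicates 1 to 3 alone, -0.129 to 0.102). That interaction also changed sign for Inhba (-0.072 with a pseudocount of 0.1, -0.026 and -0.047 with the median-ratio and quantile scalings, -0.117 to 0.244) and Inhbe (-0.026 with a pseudocount of 1, -0.021 and -0.017 with these scalings, -0.235 to 0.307). For Inhbc, obese against lean unfed livers ran from -0.182 to 0.65 and the interaction of meal and obesity from -0.0044 to 0.828. Sums over the 5 genes count a site near both Inhbc and Inhbe once for each. In these sums DHSs numbered 44 within 50 kb, 21 within 20 kb and 78 within 100 kb. GR peaks numbered 8 within 50 kb and 14 within 100 kb, and FOXO1 peaks 5 within 50 kb, 2 within 20 kb and 9 within 100 kb. Of the 8 GR and 5 FOXO1 entries within 50 kb, 5 held the shorter forkhead core GTAAA and 2 held TGTTTAC. Overlapping GR and FOXO1 peaks count apart here, and both TGTTTAC entries hold the same match near Fst. Over all peaks GTAAA was in 31.3% of GR and 41.1% of FOXO1 peaks, and TGTTTAC in 7.3% and 18.8%. Low read numbers limit Inhba, Inhbb and Fst most.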
